A study of Rattus norvegicus with 9 samples.

Results

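The genes described here are 10 members of the Wnt pathway, chosen by name from the deposited count table: the ligands Wnt5a and Wnt5b, the secreted inhibitors Sfrp1, Sfrp2, Frzb, Dkk1, Dkk2 and Dkk3, the transcription factor gene Lef1 and the target gene Axin2. All 10 were found among the 22324 genes of the table, and all 10 were among the 14956 genes that passed the filter on low counts. They were measured by RNA sequencing of polyadenylated RNA from primary, wild-type rat nucleus pulposus cells, the cells of the soft core of the intervertebral disc. The series has 3 libraries in each of 3 groups. BNPMT cells had doxorubicin-induced senescence and an intervention called BNPMT, a name the labels do not expand and for which they give neither a dose nor a time. SEN cells had doxorubicin-induced senescence, brought about by the DNA-damaging drug doxorubicin at 200 nM for 24 h and then 6 days in fresh medium. NC cells were taken as the untreated control from their title and the absence of a treatment label, although the same protocol text, doxorubicin included, stands on every sample. The culture medium was rich in glucose and held 10% serum in all groups. Nothing in the labels tells whether the libraries of a group came from separate cultures, so each p-value reflects the variation among the 9 libraries only, and this may be technical.

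Wnt proteins are secreted, lipid-modified signals that bind Frizzled receptors on the cell surface. In the canonical branch, Frizzled and the co-receptors Lrp5 and Lrp6 stop the destruction of beta-catenin, which then works with TCF and LEF factors in the nucleus to switch on target genes such as Axin2. Other branches, through receptors such as Ror2 and through planar polarity proteins, act on cell shape and movement without beta-catenin. Secreted Frizzled-related proteins bind Wnt ligands outside the cell, whereas Dickkopf proteins of the Dkk1 type block the Lrp co-receptors. In the intervertebral disc the pathway has been studied both in notochord development and in degeneration.

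In SEN cells the Wnt-binding inhibitor genes Frzb and Sfrp2, the target gene Axin2 and the Dickkopf gene Dkk3 rose against NC, while the ligand gene Wnt5a and the inhibitor gene Dkk2 fell. Frzb had 3.05-fold and Axin2 2.56-fold the NC level after scaling of libraries, and Wnt5a and Dkk2 had 0.476-fold and 0.173-fold. In BNPMT cells all 6 of these genes moved against SEN in the opposite direction, although the fall of Dkk3 was not called when libraries were scaled by total counts. Both comparisons share the SEN libraries, so opposite directions are not independent. Of all genes tested 76.1% and 80.6% were called in them, and the share that reversed was not counted. Dkk2 stopped far short of the NC level, at 2.37 ± 0.0948 CPM (counts scaled to a common library total) in BNPMT, 1.02 ± 0.115 CPM in SEN and 8.01 ± 0.139 CPM in NC (SD, n = 3 each). Wnt5b was above NC in BNPMT cells, and Sfrp1 was below it.

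To show the stretch of DNA just before 3 genes that rose together in SEN and 1 that fell, the RefSeq windows of 250 bases before to 50 after the gene start are given for Axin2 (chr10:94398535-94398834, plus strand), Sfrp2 (chr2:171387286-171387585, plus strand), Frzb (chr3:85772047-85772346, minus strand) and Wnt5a (chr16:3703415-3703714, plus strand), all on build GRCr8, whereas the build named in the submitters' processing notes is mRatBN7.2. Capitals mark matches to letters that TCF and LEF factors are known to bind, searched on both strands. The forms were CTTTGAA and also CTTTGAT, together with CTTTGTA and also CTTTGTT.
Axin2: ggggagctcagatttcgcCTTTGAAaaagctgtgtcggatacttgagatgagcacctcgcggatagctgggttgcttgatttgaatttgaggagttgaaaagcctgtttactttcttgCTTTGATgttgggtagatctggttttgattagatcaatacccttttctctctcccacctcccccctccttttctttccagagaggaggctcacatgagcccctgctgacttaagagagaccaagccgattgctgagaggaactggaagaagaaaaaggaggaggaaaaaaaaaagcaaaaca
Sfrp2: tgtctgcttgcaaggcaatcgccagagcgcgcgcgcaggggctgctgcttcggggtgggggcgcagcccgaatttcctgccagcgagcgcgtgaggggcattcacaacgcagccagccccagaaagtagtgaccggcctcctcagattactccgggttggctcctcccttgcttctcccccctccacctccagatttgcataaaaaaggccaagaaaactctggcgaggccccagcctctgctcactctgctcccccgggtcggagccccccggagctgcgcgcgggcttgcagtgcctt
Frzb: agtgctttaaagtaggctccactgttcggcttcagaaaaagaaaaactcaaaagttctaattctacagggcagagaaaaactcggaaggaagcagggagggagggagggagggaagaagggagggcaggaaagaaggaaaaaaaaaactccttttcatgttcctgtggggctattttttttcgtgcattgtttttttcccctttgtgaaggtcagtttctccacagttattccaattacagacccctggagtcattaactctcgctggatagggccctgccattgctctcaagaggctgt
Wnt5a: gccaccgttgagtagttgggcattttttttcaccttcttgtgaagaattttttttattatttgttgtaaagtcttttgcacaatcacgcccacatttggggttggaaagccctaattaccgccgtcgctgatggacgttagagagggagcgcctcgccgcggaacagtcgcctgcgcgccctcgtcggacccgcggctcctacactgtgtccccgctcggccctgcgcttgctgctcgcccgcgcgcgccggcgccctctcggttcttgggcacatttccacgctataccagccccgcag

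The Axin2 window held CTTTGAA, starting 232 bases before the gene start, and CTTTGAT, starting 132 bases before it. The windows of Sfrp2, Frzb and Wnt5a held none of the TCF/LEF letters. Such windows were matched by gene ID for 6 of the 10 genes, also Dkk1 and Lef1, and 2 of the 6, Axin2 and Dkk1, held a match. At least 1 match stood in 17.1% of all 33469 RefSeq windows. The AP-1 letters TGACTCA, whose reverse complement was searched too and which overlap no TCF/LEF match here, stood in the Lef1 window and in 4.63% of all windows. A match is a run of letters and was not tested as a binding site.

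Total counts were 35094282 to 41971877 in BNPMT, 31206834 to 38391586 in SEN and 34514440 to 41873790 in NC libraries. A count of 3 was worth 0.0715 to 0.0961 CPM, depending on the total count of the library. The p21 gene Cdkn1a, a brake on the cell cycle, stood at 263 to 285 CPM in BNPMT, 1018 to 1109 CPM in SEN and 131 to 135 CPM in NC libraries. Summed nucleus pulposus and notochord markers (11 measured) stood at 2440 to 2660, 7240 to 7370 and 5260 to 5530 CPM in BNPMT, SEN and NC libraries. Of these markers of nucleus pulposus and notochord cells, Col2a1 averaged 1960, 6490 and 4570 CPM in BNPMT, SEN and NC, Pax1 149, 52.7 and 135 CPM, and Krt18, Krt19 and Tbxt were below 1 CPM in all groups. Summed smooth muscle and pericyte markers (6 of 6 measured) stood at 2550 to 2800, 1330 to 1500 and 4460 to 4500 CPM in BNPMT, SEN and NC libraries, with Rgs5 near 0. Most of this came from Acta2 at 1140, 389 and 2390 CPM and Tagln at 1440, 964 and 1890 CPM. Des differed, at 54.9, 28.4 and 28.4 CPM. Summed annulus and fibroblast markers (8 of 8) stood at 17100 to 19800, 37500 to 37800 and 38000 to 39600 CPM, most of it from Col1a1 at 13000, 30500 and 30400 CPM and from Col1a2. Other genes of that list were split between BNPMT and SEN. Thy1 stood at 617, 186 and 506 CPM and Pdgfra at 222, 106 and 242 CPM in BNPMT, SEN and NC. Mkx and Scx were likewise higher in BNPMT than in SEN. Lower in BNPMT than in SEN, as the collagens were, stood Dcn at 69.5, 181 and 71.6 CPM and Tnmd at 19.4, 94.2 and 39 CPM. Endothelial markers (5 measured) summed to 0.981 to 1.51, 4.95 to 5.38 and 1.04 to 1.55 CPM, with Cdh5 at or near 0. Within that list Pecam1 averaged 0.0254, 4.04 and 0.0165 CPM in BNPMT, SEN and NC, Tek 0.586, 0.441 and 0.962 CPM and Vwf 0.170, 0.265 and 0.270 CPM, so the higher sum in SEN came from Pecam1. The 2 leukocyte markers measured, Cd68 and Csf1r, summed to 0.478 to 0.715, 21.4 to 25.2 and 0.191 to 0.840 CPM, nearly all of it from Cd68. The part of these markers in the changes below was not tested, and in bulk RNA fewer cells of a type and less RNA per cell cannot be told apart.

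Log2 changes come from edgeR's quasi-likelihood test on counts scaled by trimmed means of M-values (TMM), with Benjamini-Hochberg adjustment over all 14956 genes, and a gene is said to rise or fall when its adjusted p is below 0.05. The scale matters for the size of large changes and for the direction of small ones. When libraries were scaled by total counts, the middle gene of the table changed by -0.46 (log2) in SEN against NC and by 0.52 in BNPMT against SEN, compared with -0.01 and 0.02 under TMM. Removal of each library's trend with transcript length also moved the middle gene, to -0.25 and 0.26. CPM and FPKM values (FPKM is also per kilobase of gene) are per total count.

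**Figure D1:**
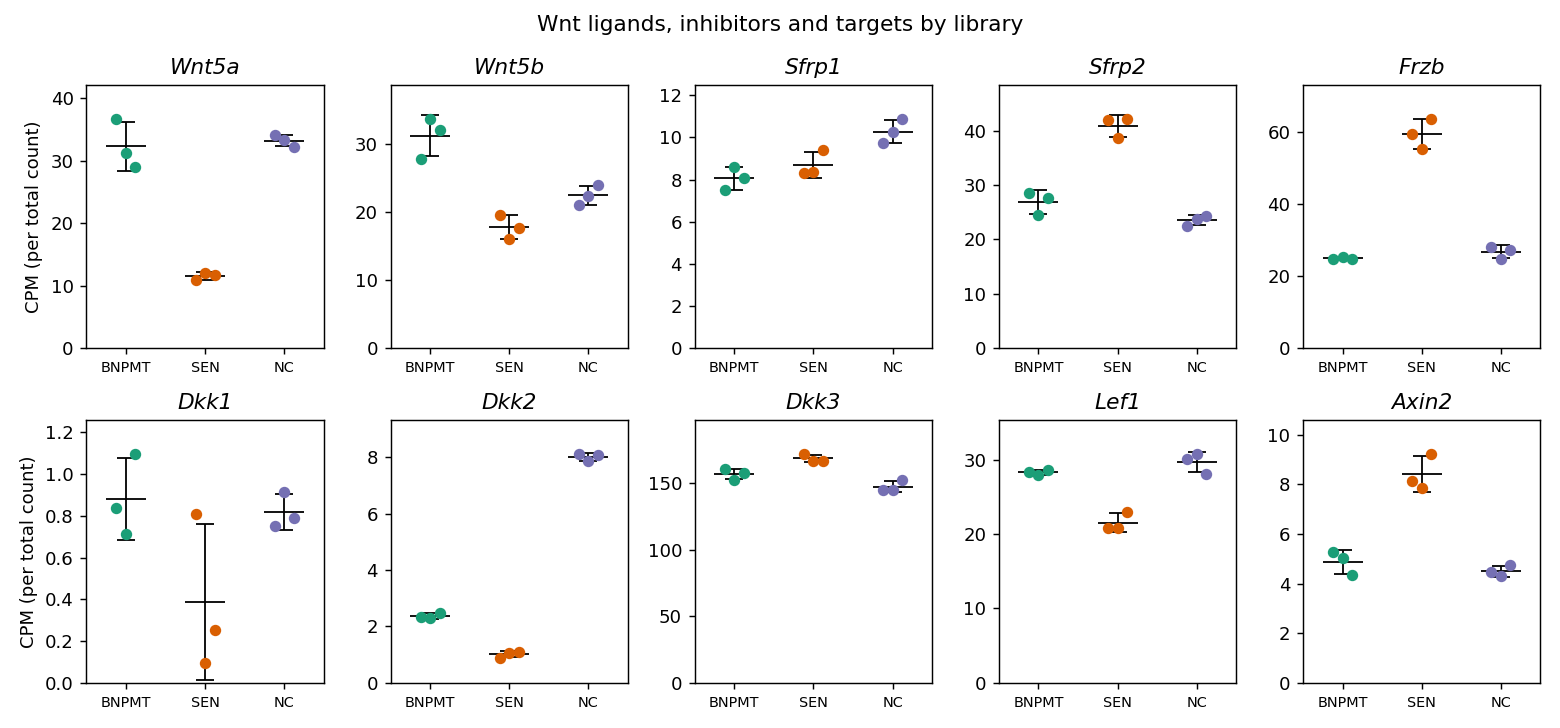
CPM per total count (vertical axes, from 0) of the 10 Wnt genes in each library. Points are libraries, and bars show the mean and SD of the 3 libraries of BNPMT, SEN and NC. Wnt5a and Dkk2 are lowest and Frzb, Sfrp2 and Axin2 highest in SEN, and Dkk1 spreads from 0.0961 to 0.807 CPM within SEN.

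Wnt5a encodes a ligand that acts mainly through the branches without beta-catenin. It had 36.7, 31.3 and 29.1 CPM in BNPMT, 10.9, 12.1 and 11.7 CPM in SEN, and 34.1, 33.4 and 32.2 CPM in NC libraries. The SEN libraries lay below all others, and BNPMT and NC overlapped. Wnt5a fell by 1.07 ± 0.09 on the log2 scale in SEN against NC (SE, adjusted p = 6.93e-08) and rose by 0.98 ± 0.09 in BNPMT against SEN (adjusted p = 1.47e-07). BNPMT against NC gave -0.09 ± 0.08, which did not pass the test (adjusted p = 0.373, between 0.0168 and 0.877 over 20 alternatives). Without BNPMT 1, the highest library, that comparison was called lower, at -0.18 (adjusted p = 0.0378), and without SEN 1 and BNPMT 1 together at -0.19 (adjusted p = 0.0168). With total counts the change of BNPMT against SEN was 1.48, over 1.5 times larger.

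Wnt5b, a close relative of Wnt5a, had 27.8, 33.6 and 32.1 CPM in BNPMT, 19.6, 16.1 and 17.6 CPM in SEN, and 21.1, 22.4 and 23.9 CPM in NC libraries. No groups overlapped. It rose in BNPMT against NC by 0.42 ± 0.09 (adjusted p = 0.00218), in each of 20 alternatives as well, and in BNPMT against SEN by 0.31 ± 0.10 (adjusted p = 0.00977), or 0.81 with total counts. For SEN against NC the direction depended on the scale: 0.12 ± 0.10 under TMM, which did not pass the test (adjusted p = 0.296, between 0.00465 and 0.831 over 20 alternatives), and a called -0.34 with total counts (adjusted p = 0.00465). In the RefSeq annotation Wnt5b overlaps Fbxl14, which averaged 27.4, 16.1 and 28.7 CPM in BNPMT, SEN and NC. The sources used here do not tell whether the counting was strand-specific, and reads of the shared stretch cannot be told apart.

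The ratio of Wnt5a to Wnt5b FPKM within a library does not depend on how libraries are scaled. It was 0.50, 0.353 and 0.343 in BNPMT, 0.211, 0.285 and 0.252 in SEN, and 0.614, 0.566 and 0.511 in NC libraries, so each group had its own range and every BNPMT library stayed under every NC library. The ratios given here were chosen after the levels had been seen. They can still carry a library's trend with transcript length, which is 6660 bases for Wnt5a and 2524 for Wnt5b. Across genes, a library's departure from its group mean had a Spearman correlation with length of 0.51 in BNPMT 1, -0.43 in BNPMT 2 and -0.42 in SEN 1.

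Frzb encodes a secreted Frizzled-related protein first known from cartilage, where it binds Wnt ligands. It had 24.8, 25.4 and 24.8 CPM in BNPMT, 59.6, 55.5 and 63.7 CPM in SEN, and 28.2, 24.7 and 27.4 CPM in NC libraries. SEN stood clear of both other groups. Frzb rose in SEN against NC by 1.61 ± 0.07 (adjusted p = 1.21e-10) and fell in BNPMT against SEN by 1.76 ± 0.07 (adjusted p = 4.55e-11), the largest fall of the 10 genes. At -0.15 ± 0.07, BNPMT against NC did not pass the test (adjusted p = 0.0958, with 20 alternatives giving 0.0189 to 0.288). Frzb was called lower there without NC 2 at -0.21 (adjusted p = 0.0471), and at -0.20 after each library's trend with transcript length had been removed (adjusted p = 0.0189).

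Sfrp2, another Wnt-binding inhibitor of that family, had 28.6, 24.4 and 27.5 CPM in BNPMT, 42.0, 38.6 and 42.1 CPM in SEN, and 22.5, 23.8 and 24.3 CPM in NC libraries. SEN was the highest group, and BNPMT lay just above NC. Sfrp2 rose in SEN against NC by 1.25 ± 0.07 (adjusted p = 1.92e-09; 0.80 with total counts) and fell in BNPMT against SEN by 1.11 ± 0.07 (adjusted p = 5.21e-09; -0.61 with total counts). BNPMT against NC gave 0.14 ± 0.07, which did not pass the test (adjusted p = 0.121, between 0.0402 and 0.844 over 20 alternatives). With total counts it was called higher at 0.19 (adjusted p = 0.0465), and it was -0.02 after removal of the length trend.

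Sfrp1, the third Frizzled-related gene, moved in a different way. It had 7.51, 8.61 and 8.10 CPM in BNPMT, 8.31, 8.36 and 9.39 CPM in SEN, and 9.74, 10.3 and 10.9 CPM in NC libraries. BNPMT and SEN overlapped, and NC was the highest group. Sfrp1 fell in BNPMT against NC by 0.40 ± 0.10 (adjusted p = 0.00371), in each of 20 alternatives as well. It also fell in BNPMT against SEN by 0.61 ± 0.10 (adjusted p = 6.69e-05, between 5.06e-09 and 0.347 over 20 alternatives), a call that ended with total counts (-0.11, adjusted p = 0.322). For SEN against NC the value was 0.21 ± 0.10 under TMM (adjusted p = 0.0687, between 0.0231 and 0.549 over 20 alternatives) and a called -0.24 with total counts (adjusted p = 0.0323), so its direction depended on the scale.

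Set against these 2 ligands in the same library, the summed FPKM of Sfrp1, Sfrp2 and Frzb was 1.53, 1.32 and 1.46 times that of Wnt5a and Wnt5b in BNPMT, 4.79, 5.10 and 5.36 times in SEN, and 1.78, 1.70 and 1.74 times in NC libraries. The SEN libraries lay well above the others, and every BNPMT library lay below every NC library. The ratio leaves out Sfrp4, Wif1 and other ligands. Among these, Wnt11 stood at 1.03, 5.06 and 0.885 FPKM and Wnt4 at 4.21, 0.895 and 2.82 FPKM in BNPMT, SEN and NC.

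Dkk2 encodes a Dickkopf protein that binds Lrp5 and Lrp6 and can act for or against signalling. It had 2.32, 2.31 and 2.48 CPM in BNPMT, 0.886, 1.06 and 1.10 CPM in SEN, and 8.11, 7.85 and 8.07 CPM in NC libraries. The 3 groups lay far apart, with narrow spreads. Dkk2 fell in SEN against NC by 2.53 ± 0.14 (adjusted p = 1.80e-09), the largest change of the 10 genes. It rose in BNPMT against SEN by 0.72 ± 0.16 (adjusted p = 0.000826; 1.23 with total counts) and was lower in BNPMT than in NC at -1.81 ± 0.13 (adjusted p = 2.29e-07). These 3 calls held in each of 20 alternatives.

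Dkk3 encodes a divergent Dickkopf protein, for which binding to the Lrp co-receptors is not established. It had 161, 153 and 158 CPM in BNPMT, 172, 167 and 167 CPM in SEN, and 145, 145 and 153 CPM in NC libraries. The ranges of CPM did not overlap, though they were close. Under TMM it rose in SEN against NC by 0.65 ± 0.05 (adjusted p = 3.31e-08) and fell in BNPMT against SEN by 0.61 ± 0.05 (adjusted p = 5.50e-08, between 1.70e-46 and 0.0657 over 20 alternatives). With total counts the rise was 0.19 (adjusted p = 0.00239) and the fall was no longer called at -0.10 (adjusted p = 0.0657). BNPMT against NC gave 0.04 ± 0.05 (adjusted p = 0.51, between 0.000899 and 0.752 over 20 alternatives), and of the 20 only removal of the length trend gave a call, at 0.25 (adjusted p = 0.000899).

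Dkk1 encodes the prototype Dickkopf inhibitor and had few counts, near the floor only in SEN 2 and SEN 3. It had 35, 25 and 46 counts in BNPMT, 31, 3 and 9 counts in SEN, and 26, 37 and 33 counts in NC libraries. SEN 2 and SEN 3 were below all other libraries, and SEN 1 was among the NC values. No comparison was called, with -0.57 ± 0.49 for SEN against NC (adjusted p = 0.30, between 0.00391 and 0.752 over 19 alternatives), 0.63 ± 0.48 for BNPMT against SEN (adjusted p = 0.238, between 0.00275 and 0.65) and 0.06 ± 0.43 for BNPMT against NC (adjusted p = 0.925, between 0.801 and 1). Without SEN 1 the first was called lower at -1.74 (adjusted p = 0.00394) and the second higher at 1.80 (adjusted p = 0.00275), so SEN 1 decided both. On log2(FPKM + 0.1), with all libraries, they were called at -0.94 (adjusted p = 0.0254) and 1.01 (adjusted p = 0.0174), and with total counts the second was called at 1.14 (adjusted p = 0.0413). Within a library the Dkk2 to Dkk3 ratio of FPKM, which needs no Dkk1, was 0.0279 to 0.0303 in BNPMT, 0.00993 to 0.0127 in SEN and 0.102 to 0.108 in NC.

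Axin2 encodes a scaffold of the complex that destroys beta-catenin, and it is itself switched on by the canonical branch, so it is widely used as a readout of it. It had 5.29, 5.02 and 4.34 CPM in BNPMT, 8.13, 7.85 and 9.22 CPM in SEN, and 4.46, 4.30 and 4.73 CPM in NC libraries. The SEN libraries lay above all others, and BNPMT and NC overlapped. Axin2 rose in SEN against NC by 1.35 ± 0.12 (adjusted p = 1.37e-07; 0.90 with total counts) and fell in BNPMT against SEN by 1.29 ± 0.12 (adjusted p = 1.80e-07; -0.78 with total counts). BNPMT against NC gave 0.07 ± 0.12, which did not pass the test (adjusted p = 0.675, between 0.115 and 0.99 over 20 alternatives).

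Lef1 encodes a nuclear partner of beta-catenin and is also a target of the pathway in many cells. It had 28.3, 28 and 28.7 CPM in BNPMT, 20.8, 20.8 and 23.0 CPM in SEN, and 30.0, 30.8 and 28.1 CPM in NC libraries. SEN was lowest per total count, and BNPMT and NC overlapped. In the RefSeq annotation Lef1 overlaps Lef1l, LOC134485968 and LOC120100943, none of which was found by symbol in the count table. Under TMM the change was -0.01 ± 0.07 in SEN against NC (adjusted p = 0.912, between 2.76e-05 and 0.961 over 20 alternatives), -0.11 ± 0.07 in BNPMT against SEN (adjusted p = 0.161, between 0.000108 and 0.614) and -0.12 ± 0.07 in BNPMT against NC (adjusted p = 0.163, between 0.108 and 0.742). With total counts it was called lower in SEN against NC at -0.46 (adjusted p = 2.76e-05) and higher in BNPMT against SEN at 0.40 (adjusted p = 0.000108). Removal of the length trend gave called values of -0.16 (adjusted p = 0.0363) and 0.19 (adjusted p = 0.0152). The middle gene of the table then changed by -0.25 and 0.26. Both the direction and the call of Lef1 thus depended on the scale. Within a library the Axin2 to Lef1 ratio of FPKM was 0.137 to 0.169 in BNPMT, 0.340 to 0.362 in SEN and 0.126 to 0.152 in NC, with SEN apart from both other groups.

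**Figure D2:**
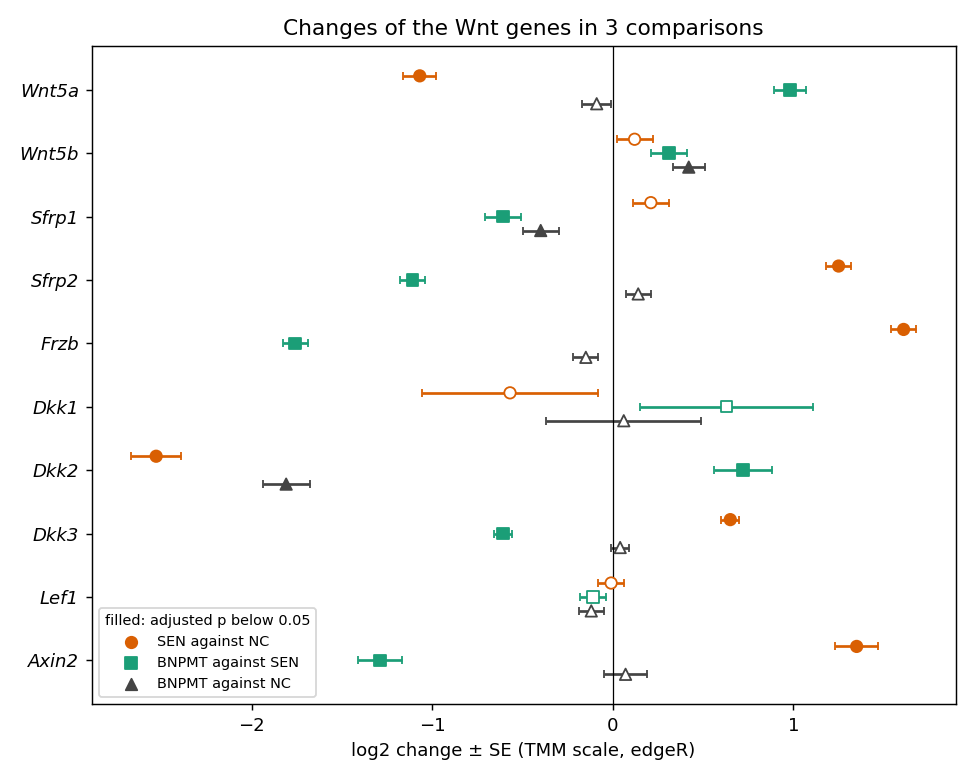
Log2 change (horizontal axis, TMM scale) with its SE for the 10 Wnt genes in 3 comparisons, filled where the adjusted p is below 0.05. Frzb, Sfrp2, Axin2 and Dkk3 lie right of 0 for SEN against NC and left of it for BNPMT against SEN, Wnt5a and Dkk2 the other way round, and for BNPMT against NC the filled symbols are Wnt5b at 0.42, Sfrp1 at -0.40 and Dkk2 at -1.81.

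Counted together, 4 of the 10 genes rose and 2 fell in SEN against NC. Over all genes tested 76.1% were called, 37.6% higher and 38.5% lower. In BNPMT against SEN 3 rose and 5 fell, where 80.6% of all genes were called, 40.7% higher and 39.9% lower. In BNPMT against NC 1 rose and 2 fell, where 52.8% of all genes were called, 26.3% higher and 26.5% lower. The median log2 change of the 10 was 0.16, -0.36 and -0.02 in the 3 comparisons, beside -0.01, 0.02 and 0.00 over all genes tested. The comparisons share libraries, SEN in the first pair and NC or BNPMT in the others, so their values are set side by side and opposite signs in the first pair are not independent. With total counts 4 rose and 5 fell in SEN against NC, 5 rose and 3 fell in BNPMT against SEN, and 2 rose and 2 fell in BNPMT against NC. Among all genes called, the share that rose was then 30.1% for SEN against NC and 69% for BNPMT against SEN, compared with 49.4% and 50.5% under TMM.

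**Figure D3:**
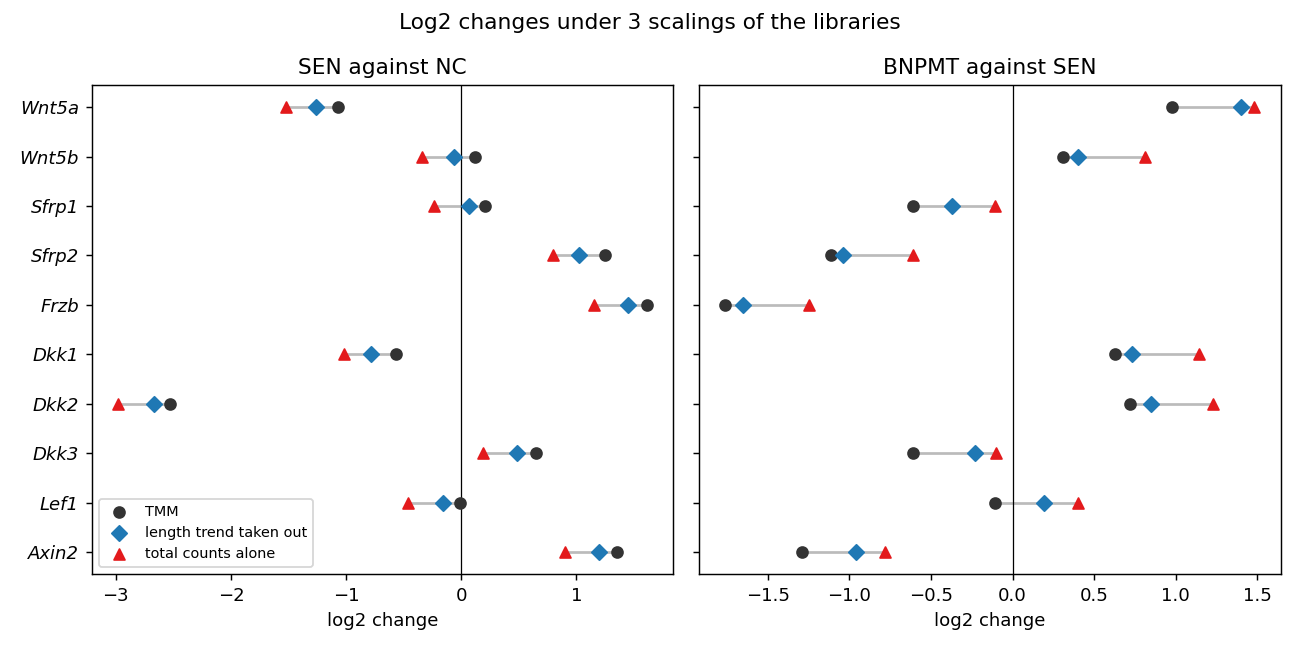
Log2 changes of the 10 Wnt genes (horizontal axis) for SEN against NC and BNPMT against SEN under TMM, with the length trend taken out, and with total counts alone. Frzb, Sfrp2, Axin2, Wnt5a and Dkk2 keep their side of 0 under all 3, while Lef1 crosses 0 in BNPMT against SEN (-0.11, 0.19 and 0.40) and Wnt5b and Sfrp1 cross it in SEN against NC.

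Per length, Dkk3 was the most abundant of the 10 transcripts in every group, at 26.4 ± 0.668 FPKM in BNPMT, 28.3 ± 0.479 FPKM in SEN and 24.8 ± 0.719 FPKM in NC. Next in BNPMT, Sfrp2 (13.6 FPKM) and Wnt5b (12.3) overlapped and stood above Frzb (9.12), Lef1 (5.88), Wnt5a (4.86), Sfrp1 (1.94), Axin2 (0.915), Dkk2 (0.767) and Dkk1 (0.385), without further overlap. In SEN the order of FPKM levels was Dkk3, Frzb (21.7), Sfrp2 (20.7), Wnt5b (7.03), Lef1 (4.47), Sfrp1 (2.08), Wnt5a (1.74), Axin2 (1.58), Dkk2 (0.329) and Dkk1 (0.168), with overlap of Frzb with Sfrp2, of Wnt5a with Axin2 and of Dkk2 with Dkk1. In NC Dkk3 was followed by Sfrp2 (11.9 FPKM), Frzb (9.77), Wnt5b (8.89), Lef1 (6.16), Wnt5a (4.99), Dkk2 (2.60), Sfrp1 (2.47), Axin2 (0.843) and Dkk1 (0.357), and neighbours overlapped between Frzb and Wnt5b and between Dkk2 and Sfrp1. Dkk2 thus stood below Axin2 in BNPMT and SEN and above it in NC.

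Across the 9 libraries, the gene whose log2 CPM followed Frzb most closely among 10181 expressed genes was Fgfr1, with a Pearson r of 0.999, given as a description because the libraries fall into 3 groups. The closest were Niban2 for Dkk3, Vgll4 for Sfrp2, Olfml2b for Dkk2, Kcnj2 for Wnt5a and Fam222a for Axin2. Dkk1 and Lef1 had the loosest best match, each with r of 0.903, to Xrcc6 and Tnfrsf11b.

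The wider pathway list held 103 genes in 9 roles, of which 83 were tested, the 10 genes above included. In SEN against NC 37 rose, 21 fell and 25 had no call, and the median was 0.19 on the log2 scale (-0.26 with total counts, where 20 rose and 42 fell). In BNPMT against SEN 17 rose and 49 fell, or 33 and 27 with total counts, beside 40.7% and 39.9% of all genes under TMM. In BNPMT against NC 8 rose and 38 fell, or 15 and 35 with total counts, beside 26.3% and 26.5% of all genes under TMM. The counts of each role below stand beside the shares of all genes called. These were 37.6% higher and 38.5% lower in SEN against NC, and 40.7% higher and 39.9% lower in BNPMT against SEN. In either direction they were 76.1% and 80.6%. With total counts, 30.1% and 69% of all called genes rose in these comparisons. Among 7 tested ligands 2 rose and 2 fell in SEN against NC, or 2 and 4 with total counts. Wnt2, which was called higher, had 9 to 11 counts in SEN, 1 to 2 in NC and 0 to 1 in BNPMT libraries. It was near the floor and passed the filter on low counts only through SEN, so its call carries little weight. Wnt11, a ligand of the branches without beta-catenin, averaged 3.30 ± 0.534 CPM in BNPMT, 16.2 ± 0.511 CPM in SEN and 2.82 ± 0.535 CPM in NC, a rise of 2.96 ± 0.14 in SEN against NC (adjusted p = 2.97e-10). Wnt4 averaged 17.8 ± 1.75, 3.78 ± 0.488 and 11.9 ± 0.389 CPM in BNPMT, SEN and NC, falling by 1.20 ± 0.11 in SEN against NC (adjusted p = 3.38e-07) and lying above NC in BNPMT at 0.53 ± 0.10 (adjusted p = 0.00057), as Wnt5b did.

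Frizzled receptor genes moved in both directions. Of 14 tested receptor and co-receptor genes 3 rose and 7 fell in SEN against NC, and 5 rose and 7 fell in BNPMT against SEN. With total counts 2 rose and 10 fell in SEN against NC, and 6 rose and 4 fell in BNPMT against SEN, so which direction had more genes turned with the scale in the second comparison. Called in either direction were 10 and 12 of the 14, where 76.1% and 80.6% of all genes were called. Fzd5 rose in SEN by 3 ± 0.12 and Fzd8 by 1.46 ± 0.06, whereas Fzd2 fell by 2.02 ± 0.06 and Fzd1 by 1.31 ± 0.06. Fzd2 averaged 104 ± 3.93, 19.0 ± 0.418 and 106 ± 1.66 CPM in BNPMT, SEN and NC.

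Of 14 tested secreted and membrane inhibitors, which include 6 of the genes above, 8 rose and 2 fell in SEN against NC, and 1 rose and 9 fell in BNPMT against SEN. With total counts the counts were 6 and 5 for SEN against NC, and 4 and 5 for BNPMT against SEN. The 10 of 14 called in each comparison under TMM stand beside 76.1% and 80.6% of all genes. By direction, 37.6% of all genes were higher and 38.5% lower in SEN against NC. In BNPMT against SEN the shares were 40.7% and 39.9%. With total counts, 30.1% and 69% of all called genes rose in the same comparisons. Apcdd1, a membrane inhibitor, rose by 1.47 ± 0.07 in SEN and fell by 1.58 ± 0.07 in BNPMT against SEN. Znrf3, which encodes a ligase that removes Frizzled from the surface, rose by 1.48 ± 0.24 in SEN and fell by 2.77 ± 0.27 in BNPMT against SEN.

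Other targets did not follow Axin2 as a group. Of 6 tested targets, Axin2 included, 2 rose and 3 fell in SEN against NC, and 2 rose and 3 fell in BNPMT against SEN, or 2 and 4, and 3 and 3, with total counts. Myc, a growth regulator with many inputs besides Wnt, averaged 30.7 ± 1.62, 220.0 ± 5.77 and 61.2 ± 1.64 CPM in BNPMT, SEN and NC and rose by 2.30 ± 0.06 in SEN. Nkd2, which encodes a feedback inhibitor acting on Dishevelled, averaged 37.6 ± 1.56, 3.31 ± 0.597 and 32.4 ± 1.46 CPM and fell by 2.83 ± 0.10 in SEN. Ccn4 fell by 0.66 ± 0.08 in SEN and was also lower in BNPMT than in NC at -0.72 ± 0.08.

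Between the surface and the targets, 9 of 13 genes of the cytoplasmic beta-catenin branch rose and 1 fell in SEN against NC, with a median of 0.42, but with total counts 4 fell, the other 9 were not called and the median was -0.03. The 10 of 13 called under TMM stand beside 76.1% of all genes, 37.6% higher and 38.5% lower. The gene that fell, Btrc, encodes the ubiquitin ligase subunit that recognises beta-catenin, at -1.07 ± 0.07. Of 12 nuclear factors, Lef1 included, 7 rose and 2 fell, or 3 and 7 with total counts. Tle4, which encodes a co-repressor of TCF and LEF factors, rose by 2.58 ± 0.10, and Tcf7l2, a relative of Lef1, by 0.92 ± 0.06.

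**Figure D4:**
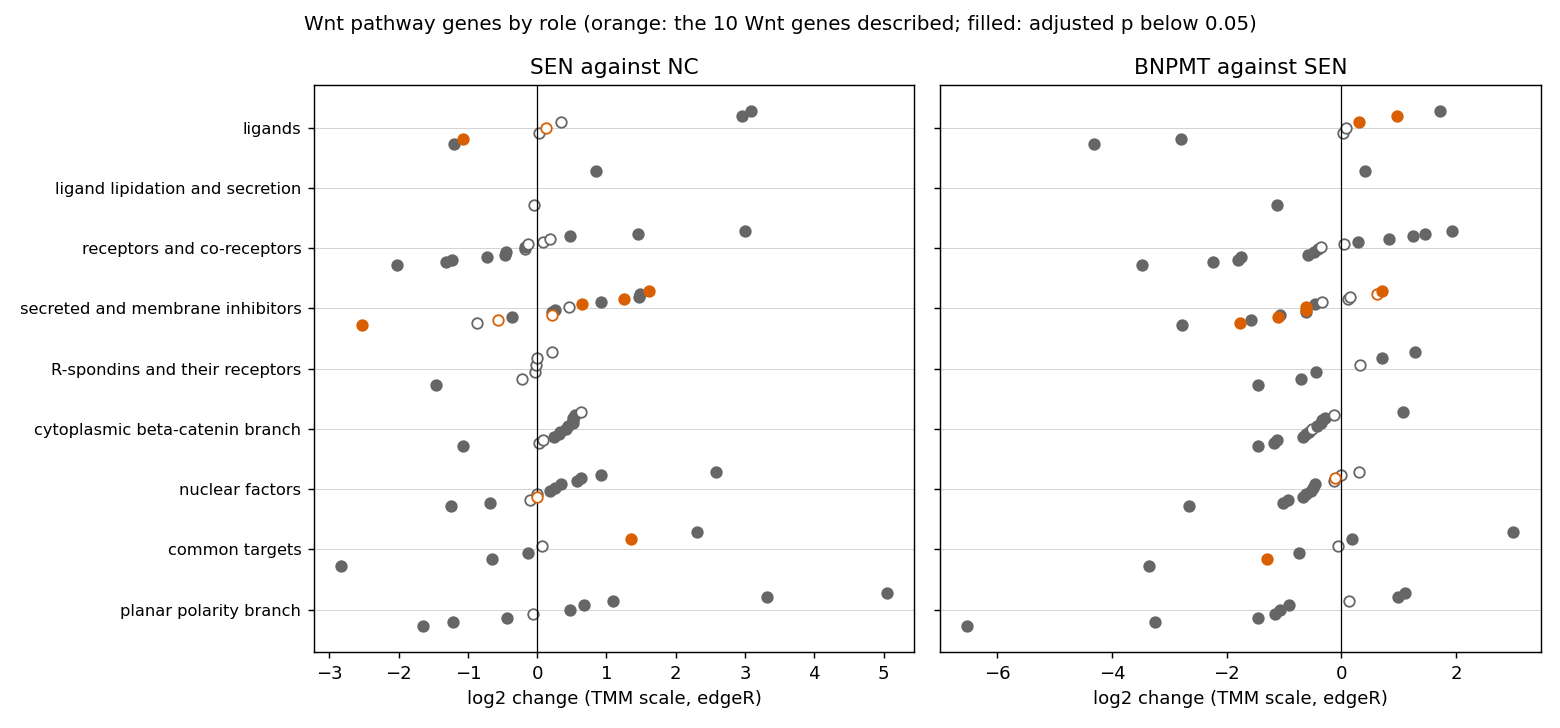
Log2 change (horizontal axes, TMM scale) of the 83 tested Wnt pathway genes by role, for SEN against NC and BNPMT against SEN. Each point is a gene, orange for the 10 genes described above and filled where the adjusted p is below 0.05. Genes of most roles lie on both sides of 0, and Celsr2 of the planar polarity branch lies farthest out, at 5.05 and -6.52.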

How the data were processed

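Polyadenylated RNA was sequenced in 9 libraries, 3 each of BNPMT, SEN and NC, prepared, per the labels' protocols, by TRIzol extraction and the VAHTS Universal V6 kit. Tools named in the submitters' processing notes are HTSeq, HISAT2 and fastp, with the build mRatBN7.2. The annotation, strand setting and tool versions were not given in the sources used here. The authors deposited whole-number counts per gene and FPKM. Each deposited FPKM is the count per kilobase of gene length and per library total.

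The counts were filtered with filterByExpr, scaled by TMM and fitted over all 9 libraries (edgeR 4.0.16, R 4.3.3). Contrasts were tested by quasi-likelihood, with Benjamini-Hochberg adjustment and a threshold of 0.05. All adjusted p-values come from that test unless an alternative is named. The count model was run on counts simulated from its own fitted spread, with a small set of genes changed equally up and down. Such counts cannot test the choice of scale.

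The 20 alternatives included DESeq2 1.42.0, limma 3.58.1 on log2(FPKM + 1) and log2(FPKM + 0.1), whose added constant understates changes of low genes, total counts, a loess removal of each library's trend with transcript length, and leaving out each library. The genes, lists and alternatives were chosen with earlier results of these data known. From each role list of the wider pathway, up to 2 called genes with the largest rise and 2 with the largest fall and at least 1 CPM could be named in each comparison. Promoter windows are from RefSeq.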

Additional observations from a re-analysis of the deposited data

How the results depend on the processing

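Of 597 alternative values of the 30 gene changes (10 genes in 3 comparisons), 544 kept direction and side of the threshold, 4 lost the call, 26 gained one and 23 changed sign. The counts of called genes that moved by over 1.5 times were as follows. In SEN against NC 2 genes were called lower, compared with 5 with total counts and 6 with each FPKM alternative. In BNPMT against SEN 3 were called higher, compared with 5 with total counts and with each FPKM alternative, and 5 lower, compared with 3 with total counts. In BNPMT against NC 1 was called higher, compared with 2 with total counts, with each FPKM alternative and with the length trend taken out. Total counts and FPKM share their scale, which sets them apart from TMM.

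Changes of sign in SEN against NC were found for Wnt5b (0.12 under TMM, -0.34 with total counts, -0.30 and -0.34 on log2(FPKM + 1) and log2(FPKM + 0.1), -0.06 with the length trend taken out), Sfrp1 (0.21, compared with -0.24, -0.17 and -0.23 with total counts and both FPKM alternatives) and Lef1 (-0.01, compared with 0.05 with DESeq2 size factors and with DESeq2, 0.03 with a filter of 1 CPM in 3 libraries, 0.00 without SEN 1 and BNPMT 1, and -0.06 to 0.01 leaving out each library). In BNPMT against SEN, Lef1 changed sign from -0.11 to 0.40 with total counts, 0.33 and 0.39 with FPKM and 0.19 with the length trend taken out. In BNPMT against NC, taking out the length trend gave 0.14 for Wnt5a, -0.05 for Dkk1, -0.02 for Sfrp2 and 0.03 for Lef1, and Dkk1 ranged from -0.13 to 0.18 leaving out each library. Apart from the change of scale, the cause was not tested. Transcript length went with single libraries: across genes, the departure of SEN 1 from its group mean had a Spearman correlation of -0.42 with length, and that of BNPMT 1 one of 0.51.

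Same-numbered libraries did not deviate together (correlations of their deviations from group means -0.24 to 0.06), so the replicate numbers were not taken as pairing. The fit with a replicate block changed no call of the 10 genes: 4 were higher and 2 lower in SEN against NC, 3 and 5 in BNPMT against SEN, and 1 and 2 in BNPMT against NC. Over all genes it called 11143, 11842 and 7348 in these comparisons, against 11382, 12061 and 7903 without the block. Low counts limit Dkk1, whose lowest library held 3 counts.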

Other observations

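The planar polarity branch orients cells and guides their movement. Of 9 tested, 5 rose and 3 fell in SEN against NC, and 2 rose and 6 fell in BNPMT against SEN, beside 76.1% and 80.6% of all genes called in either direction. With total counts 4 rose and 3 fell, and 3 rose and 5 fell. Celsr3, called higher in SEN against NC and lower in BNPMT against SEN, passed the filter on low counts only through SEN. It had 17 to 31 counts in SEN, 3 to 4 in NC and 2 to 7 in BNPMT libraries, so its calls carry little weight. Celsr2, which encodes an adhesion receptor of that branch, had 0.263, 0.114 and 0.191 CPM in BNPMT, 10.8, 13.3 and 14.1 CPM in SEN, and 0.348, 0.692 and 0.502 CPM in NC libraries. It was near the floor in both other groups and rose in SEN against NC by 5.05 ± 0.21 (edgeR, adjusted p = 5.59e-11). Vangl1, a membrane protein gene of the same branch, fell by 1.21 ± 0.08.

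Of 6 tested R-spondin genes and their receptors, 1 fell in SEN against NC and 5 did not pass the test (edgeR), and with total counts 4 fell. Over all genes 37.6% were called higher and 38.5% lower there under TMM. The gene that fell was Lgr4, an R-spondin receptor, at 255 ± 26.1, 73.7 ± 8.65 and 278 ± 12 CPM in BNPMT, SEN and NC (SD, n = 3 each) and a log2 change of -1.46 ± 0.08. Lgr5, its relative and a stem cell marker in several tissues, averaged 42.0 ± 5.93, 18.0 ± 1.73 and 25.0 ± 1.52 CPM and was higher in BNPMT than in NC by 0.70 ± 0.10 (adjusted p = 6.09e-05). The Wnt export gene Wls rose in SEN against NC by 0.85 ± 0.06, fell in BNPMT against SEN by 1.12 ± 0.06 and was lower in BNPMT than in NC at -0.26 ± 0.06.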
